A study of Mus musculus with 6 samples.

Results

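The genes described here encode the enzymes that build and cap the sugar chains of mucins, other glycoproteins and glycolipids, as measured in mouse intestinal tumors from the cecum and the duodenum. Membership was set by gene name: a probe set belonged when its platform annotation named exactly 1 gene of the St3gal, St6gal, St6galnac, St8sia, B3gnt, B3galt, B4galt, B4galnt, Galnt, Gcnt, Fut, Chst or Mgat families. The families were chosen with earlier results of these data known. This gave 120 probe sets for 75 genes, of 12393 genes named by the array. Tumor RNA came from 3 cecal and 3 duodenal tumors, 1 Affymetrix expression array and 1 mouse for each tumor. All 6 mice, of both groups, had the Apc1638N allele, a mutation of the Apc tumor suppressor that leads to intestinal tumors. All of them were Rb1-deficient as well; Rb1 encodes the retinoblastoma protein. The sources used here do not give the strain, sex or age of the mice or how Rb1 was removed. The duodenal group could include tumor tissue from the pylorus, the outlet of the stomach, per the labels' protocols. No normal mucosa was analysed here, so a difference between cecal and duodenal tumors cannot be told apart from one between the normal tissues of these sites.

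A mucin-type sugar chain starts when an enzyme of the Galnt family places N-acetylgalactosamine on a serine or threonine. Core and branching enzymes (C1galt1, the Gcnt family) and the B3gnt, B3galt and B4galt families then lengthen the chain. Sialyltransferases, fucosyltransferases, B4galnt2 and sulfotransferases cap it, and the Mgat family branches the separate chains attached to asparagine. These chains form much of the mass of mucins, and their caps differ along the length of the gut.

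The arrays gave linear MAS5 intensities with medians of 164.6 to 181.8. A gene was tested when a probe set was above its array's 40th percentile (intensity 92.4 to 100.6) on at least 3 of 6 arrays, and its brightest such probe set stood for it. Differences are cecal minus duodenal on the scale of log2(intensity + 16), a scale that shrinks the differences of dim genes, and a gene was called at a limma adjusted p under 0.05 over all tested genes. All 9 gut epithelium markers were tested, with 3 higher (Vil1, Cdx1 and Cdx2) and 0 lower in cecal tumors, 33.3% against 10.9% of all tested genes. They summed to 64234 to 67297 in cecal tumors and 52670 to 60018 in duodenal tumors. All 8 large intestine markers were higher and all 7 duodenum markers lower in cecal tumors, 100% of each list against 10.9% of all genes. Below the 40th percentile were 6 of the 8 in all duodenal tumors and 6 of the 7 in all cecal tumors. Those markers passed the filter only through the site where they were high, so their direction largely follows from it. Of 9 markers of stomach mucous cells on the array, 9 were lower in cecal tumors, 100% against 10.9% of all genes. Their summed intensity was 1241 to 2081 in cecal tumors and 67382 to 100901 in duodenal tumors. Gkn1, Gkn2, Tff2, Muc5ac, Cldn18, Anxa10 and Psca were below the 40th percentile in all 3 cecal tumors, so their direction largely follows from the filter. Of 9 goblet cell markers, 4 were higher (Tff3, Atoh1, Spink4 and Retnlb) and 1 lower (Clca1) in cecal tumors, 55.6% against 10.9% of all genes. The goblet cell markers summed to 40286 to 62527 in cecal tumors and 24696 to 41000 in duodenal tumors. Leukocyte markers summed to 2421 to 2781 in cecal and 2226 to 2364 in duodenal tumors, and fibroblast markers to 16458 to 20805 in cecal and 11810 to 15049 in duodenal tumors. The part of these cell types in the results that follow was not tested. In bulk tumor RNA, fewer cells of a type and less RNA per cell cannot be told apart.

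Genes of both directions were called among the members. Of the 75 genes, 43 were bright enough to be tested. Of these 43, 9 were higher and 6 lower in cecal tumors, 34.9% in all, whereas 10.9% of all 8129 tested genes were called, 5.83% higher and 5.04% lower. With a difference of at least 2-fold, 7 members were called, 16.3% of the 43, against 5.99% of all genes. The highest differences were those of Mgat4c, B3galt5 and St6galnac6, and the lowest was that of St3gal4. For 4 of the 43 (B3galt5, B3gnt5, St3gal1 and St6galnac4) all 3 duodenal tumors lay below the 40th percentile. Such genes passed the filter only through the cecal tumors, so the direction of their difference largely follows from the filter: of 209 tested genes with all tumors of 1 site below that level, 81.8% were called. Without them, 11 of 39 members were called, 5 higher and 6 lower, which is 28.2% against 9% of all 7920 genes that were not below that level in all tumors of a site. At 2-fold or more, 3 of these 39 were called, Mgat4c, St6galnac6 and St3gal4, or 7.69%, against 4.12% of the same 7920 genes. Intensities did not overlap between the sites for 22 of the 43 members, or 51.2%, against 31.3% of all tested genes. The median difference was 0.16 for the 43 members and -0.05 for all tested genes. Leaving out cecal tumor 1 left 7 of the 15 calls, and leaving out cecal tumor 2 or duodenal tumor 1 left 10. Mgat4c, B3galt5, St6galnac6, B3gnt5, St6galnac4, B4galnt2 and St6galnac2 were called at 0.05 in every alternative fit that tested them. The stricter thresholds are not counted here.

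**Figure D1:**
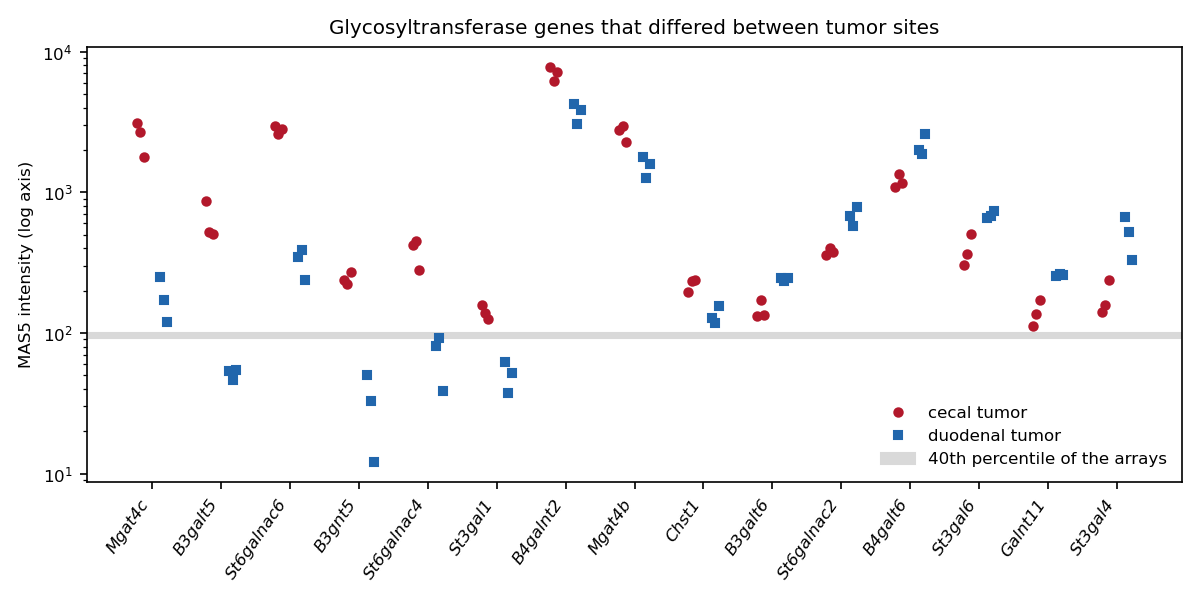
MAS5 intensity (log axis) of the 15 called genes in each tumor, cecal tumors as red circles and duodenal tumors as blue squares, ordered by the log2 difference; the grey band marks the 40th percentiles of the arrays, 92.4 to 100.6. Cecal tumors lie above duodenal tumors for the 9 genes on the left and below them for the 6 on the right, with no overlap in any of the 15.

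**Figure D2:**
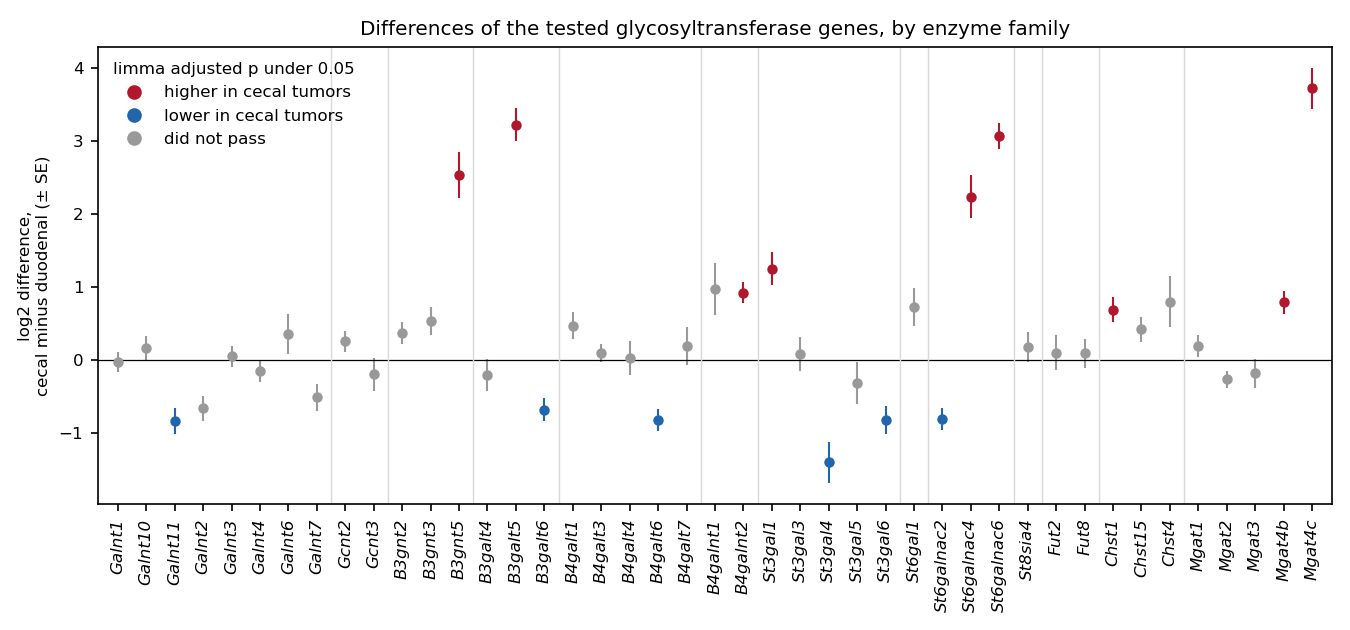
Log2 difference, cecal minus duodenal, with its limma standard error for the 43 tested genes, grouped by enzyme family; red and blue mark genes called higher and lower in cecal tumors, grey those that did not pass. The Galnt genes lie between -0.84 and 0.35, whereas the St6galnac genes run from -0.81 to 3.07.

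Of the 15 called genes, 11 matched the RefSeq promoter table and 7 of these have a single listed start. The 250 bases before that start are shown for 5 of the 7 (GRCm38.p6, 5′ to 3′ on the gene's strand), chosen after their values were seen: the neighbours St6galnac6 and St6galnac4, which were higher together in cecal tumors, B3gnt5 and B4galnt2, also higher, and St3gal4, which was lower. Capitals mark TTTAT, a core bound by Cdx factors, and CCGCCC, the GC box bound by Sp factors, both searched on both strands (on the reverse strand they read ATAAA and GGGCGG), with no overlap between them in these windows. St6galnac6 lies at chr2:32599459-32599708 (+ strand), St6galnac4 at chr2:32586828-32587077 (+), B3gnt5 at chr16:19759984-19760233 (+), B4galnt2 at chr11:95914872-95915121 (- strand) and St3gal4 at chr9:35116865-35117114 (-).
St6galnac6: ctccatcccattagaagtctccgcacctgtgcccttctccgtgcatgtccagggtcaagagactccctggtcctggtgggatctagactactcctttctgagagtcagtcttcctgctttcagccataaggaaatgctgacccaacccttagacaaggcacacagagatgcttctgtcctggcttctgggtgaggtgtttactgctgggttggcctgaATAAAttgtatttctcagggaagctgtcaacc
St6galnac4: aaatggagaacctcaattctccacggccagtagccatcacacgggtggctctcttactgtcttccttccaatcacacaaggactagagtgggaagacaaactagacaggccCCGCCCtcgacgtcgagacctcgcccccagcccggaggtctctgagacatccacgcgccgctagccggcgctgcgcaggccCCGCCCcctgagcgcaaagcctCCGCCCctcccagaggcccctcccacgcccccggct
B3gnt5: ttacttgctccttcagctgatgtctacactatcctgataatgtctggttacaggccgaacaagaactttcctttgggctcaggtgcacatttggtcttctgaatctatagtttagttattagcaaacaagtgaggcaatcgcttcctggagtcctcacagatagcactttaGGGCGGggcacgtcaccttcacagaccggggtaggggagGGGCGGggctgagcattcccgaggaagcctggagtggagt
B4galnt2: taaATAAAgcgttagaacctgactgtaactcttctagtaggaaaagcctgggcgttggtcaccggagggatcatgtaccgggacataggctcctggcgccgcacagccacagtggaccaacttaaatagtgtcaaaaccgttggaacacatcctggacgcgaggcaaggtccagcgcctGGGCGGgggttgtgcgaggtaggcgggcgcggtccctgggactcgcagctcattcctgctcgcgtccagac
St3gal4: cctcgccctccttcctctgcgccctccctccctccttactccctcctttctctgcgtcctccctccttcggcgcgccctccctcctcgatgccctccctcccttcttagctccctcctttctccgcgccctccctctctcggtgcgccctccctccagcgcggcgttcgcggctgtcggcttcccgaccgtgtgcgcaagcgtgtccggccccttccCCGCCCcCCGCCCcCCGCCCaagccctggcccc
The windows of the neighbours differ in these letters: that of St6galnac6 holds the Cdx core 1 time and no GC box, and that of St6galnac4 holds the GC box 3 times and no Cdx core. The GC box occurs 2 times before B3gnt5, 1 time before B4galnt2 and 3 times before St3gal4, and the Cdx core 1 time before B4galnt2. Among all 32851 windows of this length in the table, 37.3% hold the Cdx core and 32.7% hold the GC box. Cdx2, an intestinal homeobox factor, had a mean intensity of 819 ± 116 in cecal and 253 ± 34 in duodenal tumors (SD, n = 3 each). These matches describe the letters only.

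Sialyltransferases, which place sialic acid at chain ends, contained 6 of the 15 called genes. Of 18 on the array 10 were tested, with 3 higher and 3 lower in cecal tumors, 60% against 10.9% of all genes. Of the 3 higher genes, St6galnac4 and St3gal1 passed the filter only through the cecal tumors, and St6galnac6 was bright in both sites. In the St6galnac family, which links sialic acid to N-acetylgalactosamine, each of the 3 tested genes was called. St6galnac6, which acts on glycolipids and, in human colon, on a Lewis-type chain, had intensities of 2943, 2587 and 2820 in cecal tumors 1, 2 and 3, against 346, 386 and 238 in duodenal tumors 1, 2 and 3. All 3 cecal tumors were far above all duodenal tumors (log2 difference 3.07 ± 0.18 SE, 8.39-fold, limma adjusted p = 7.54e-05). St6galnac4, which sialylates the already sialylated core 1 chain, had 423, 449 and 279 in cecal tumors, against 81.0, 92.6 and 38.6 in duodenal tumors. Cecal tumors exceeded duodenal tumors at least 3.74-fold (log2 difference 2.24 ± 0.30 SE, limma adjusted p = 0.00311). St6galnac4 and St6galnac6 are next to each other on chromosome 2 in the RefSeq table (GRCm38.p6), 1 of 3 such pairs among the mouse members of these families. In the other pairs, St6galnac2 with St6galnac1 and St6galnac5 with St6galnac3, only St6galnac2 was bright enough to be tested. St6galnac2, which acts on core 1 and its precursor, had 359, 402 and 375 in cecal tumors, against 678, 581 and 782 in duodenal tumors. Its groups did not overlap (log2 difference -0.81 ± 0.15 SE, limma adjusted p = 0.0112). A second St6galnac2 probe set, too dim to be tested, overlapped between the sites, with 59.8 to 141.9 in cecal and 72.3 to 131.3 in duodenal tumors.

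The St3gal family, which links sialic acid to galactose, had 5 tested genes, with 2 lower in cecal tumors and 1 higher, St3gal1, whose direction largely follows from the filter. St3gal1, which acts on core 1 chains of mucins, had 159, 138 and 126 in cecal tumors, against 62.6, 37.4 and 52.1 in duodenal tumors. The cecal values were low but all higher than the duodenal ones, at least 1.40-fold (log2 difference 1.25 ± 0.23 SE, limma adjusted p = 0.0117, or 0.0530 without cecal tumor 1). St3gal4, which acts on N-acetyllactosamine chains, had 139.8, 157 and 239.5 in cecal tumors, against 670.0, 522 and 329.9 in duodenal tumors. Its log2 difference was -1.40 ± 0.28 (SE; limma adjusted p = 0.0179), and the call was lost without cecal tumor 1 (0.0756), cecal tumor 2 (0.0710) or duodenal tumor 1 (0.0538). St3gal6, which also acts on N-acetyllactosamine, had 303, 362 and 509 in cecal tumors, against 654, 678 and 742 in duodenal tumors (log2 difference -0.83 ± 0.19 SE, limma adjusted p = 0.0307). A second St3gal6 probe set passed in the same direction (-0.80, adjusted p = 0.033 over all probe sets). Its gene call was lost without any single tumor but cecal tumor 3 (limma adjusted p = 0.0592 to 0.109). The other tested sialyltransferases did not pass: St3gal3, the ganglioside enzyme St3gal5, St6gal1, which caps chains of secreted glycoproteins, and the polysialic acid enzyme St8sia4. St6gal1 had the highest difference of these, 0.72, with a 95% interval of 0.13 to 1.32 and a limma adjusted p of 0.124. St3gal2, St6galnac1, St6galnac3, St6galnac5, St8sia1, St8sia2, St8sia3 and St8sia5 were too dim to be tested.

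Of 8 tested genes on the list of sialic acid supply and removal, 3 were higher and 0 lower in cecal tumors, 37.5% against 10.9% of all genes. Gne, the bifunctional enzyme that commits sugar to sialic acid synthesis, had 1967, 1876 and 2504 in cecal tumors, against 863, 489 and 721 in duodenal tumors (log2 difference 1.62 ± 0.22 SE, limma adjusted p = 0.00301). Nans, which condenses the sialic acid backbone, had 2356, 2086 and 2256 in cecal tumors, against 1362, 1114 and 1206 in duodenal tumors (0.86 ± 0.12 SE, limma adjusted p = 0.00383). Slc35a1, which carries activated sialic acid into the Golgi, had 1658, 1415 and 1509 in cecal tumors, against 926, 735 and 986 in duodenal tumors (0.79 ± 0.14 SE, limma adjusted p = 0.0118). Cmas, which activates sialic acid, had means of 4649 ± 503 in cecal and 3612 ± 148 in duodenal tumors (SD, n = 3 each) without overlap, but did not pass (0.36 ± 0.11 SE, limma adjusted p = 0.0835). Nanp, the phosphatase of the same route, had a difference of the other sign and overlapped between the sites (-0.19, limma adjusted p = 0.479). The other tested genes of the list, Npl, Neu1 and Siae, did not pass either. Gne, Nans and Slc35a1 were called at 0.05 in every alternative fit, also without any single tumor.

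**Figure D3:**
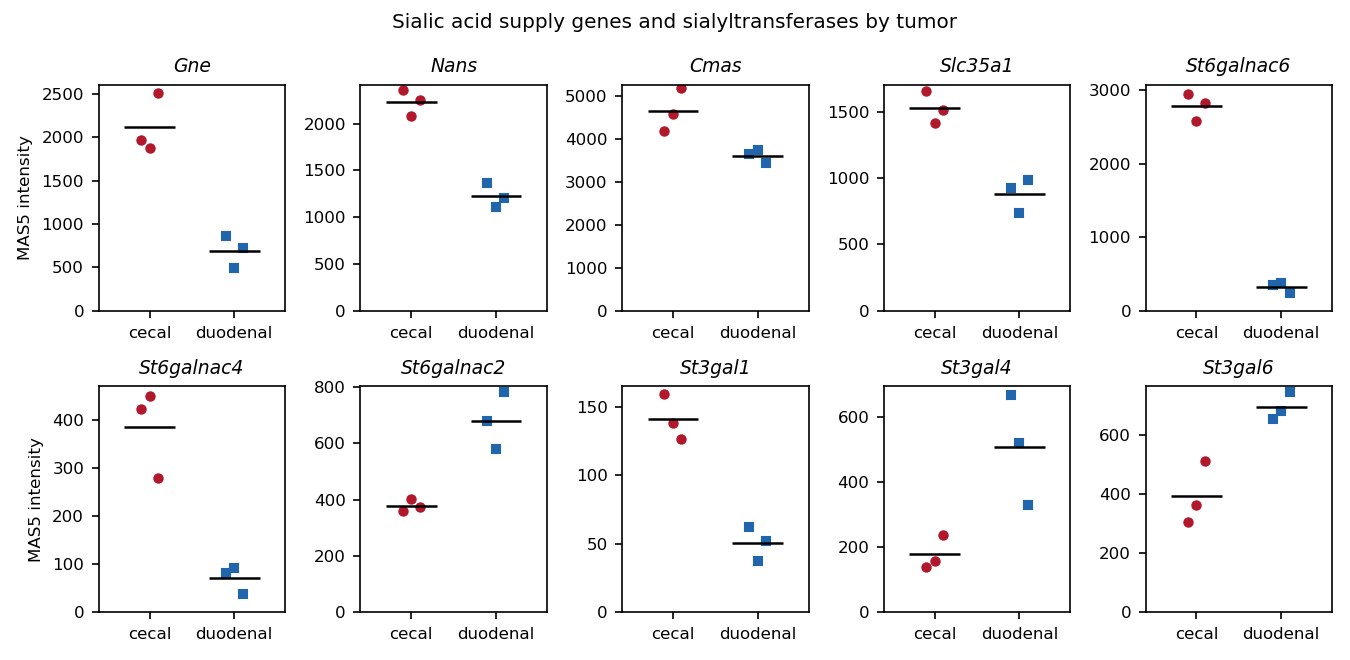
MAS5 intensity (linear axes from 0) in each tumor of 4 sialic acid supply genes and 6 sialyltransferases, cecal tumors on the left and duodenal tumors on the right of each panel, with lines at the means of 3. The panels show the called genes of these groups and Cmas, which alone of the 10 did not pass, so the lack of overlap largely follows from the choice. St6galnac2, St3gal4 and St3gal6 are lower in cecal tumors, the other genes are higher there. The tested genes Nanp, Npl, Neu1, Siae, St3gal3, St3gal5, St6gal1 and St8sia4 overlap between the sites in the probe set that stands for each and are not shown.

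Of 18 genes of the chain-extending B3gnt, B3galt and B4galt families 11 were tested. In cecal tumors 2 were higher and 2 lower, 36.4% against 10.9% of all genes. Both higher genes, B3galt5 and B3gnt5, passed the filter only through the cecal tumors, so their direction largely follows from it. B3galt5, which adds the galactose of type 1 chains, the backbone of the Lewis a and b antigens in human, had 861, 526 and 502 in cecal tumors, against 53.9, 45.9 and 54.3 in duodenal tumors. Cecal tumors exceeded duodenal tumors at least 6.08-fold (log2 difference 3.22 ± 0.23 SE, limma adjusted p = 0.000183). B3gnt5, which starts the lacto-series of glycolipids, had 238, 222 and 272 in cecal tumors, against 49.8, 32.6 and 12.0 in duodenal tumors. Again the sites did not overlap, and the difference was at least 2.42-fold (2.53 ± 0.32 SE, limma adjusted p = 0.00214). A second, dimmer B3gnt5 probe set also did not overlap, with 22.4 to 51.4 in cecal and 8.7 to 17.1 in duodenal tumors, all below the 40th percentile.

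B4galt6, which makes lactosylceramide, was lower in cecal tumors, at 1090, 1357 and 1165, against 2000, 1881 and 2593 in duodenal tumors (-0.83 ± 0.15 SE, limma adjusted p = 0.0129, or 0.0556 without cecal tumor 1). Each of its 4 tested probe sets passed, with log2 differences of -1.03 to -0.60. B3galt6, an enzyme of the proteoglycan linker, had 131.8, 172 and 133 in cecal tumors, against 244, 235 and 245 in duodenal tumors (-0.68 ± 0.16 SE, limma adjusted p = 0.0343). That call was lost with the replicate number as a block (0.0507) and without any single tumor but cecal tumor 2 (0.0655 to 0.110). A second B3galt6 probe set, too dim to be tested, overlapped between the sites, with 27.7 to 37.1 in cecal and 29.3 to 35.6 in duodenal tumors. B4galt7, the other linker enzyme tested, overlapped between the sites, with a difference of 0.19 (limma adjusted p = 0.705). All 7 uncalled genes of these families, B4galt7 among them, had differences of -0.21 for B3galt4 to 0.53 for B3gnt3. Of these, B3gnt2, B3gnt3 and B4galt1, which builds N-acetyllactosamine, were higher in every cecal tumor than in any duodenal tumor (limma adjusted p = 0.178, 0.127 and 0.155). Such a lack of overlap was seen for 31.3% of all tested genes. The other tested B3gnt2 probe set overlapped between the sites, with 189.7 to 284.8 in cecal and 140.9 to 212.4 in duodenal tumors. Too dim to be tested were B3galt1, B3galt2, B3gnt4, B3gnt8, B3gnt9, B4galt2 and B4galt5.

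B4galnt2, which adds the terminal N-acetylgalactosamine of the Sda or Cad antigen and gives the mouse gut surface its binding of Dolichos lectin, was higher in cecal tumors. It had intensities of 7810, 6196 and 7119 in cecal tumors, against 4232, 3075 and 3873 in duodenal tumors (0.92 ± 0.15 SE, limma adjusted p = 0.00679). A second B4galnt2 probe set, at 2579, 1279.6 and 1797 in cecal tumors against 663, 519.9 and 617 in duodenal tumors, passed with a larger difference of 1.58 ± 0.24 (SE; adjusted p = 0.0061 over all probe sets). Both probe sets separated the sites fully. B4galnt1, the enzyme of complex gangliosides, had 588, 584 and 492 in cecal tumors, against 302, 143 and 468 in duodenal tumors. It did not pass (0.97 ± 0.36 SE, limma adjusted p = 0.135), and it did without duodenal tumor 3 (0.0374).

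Of 9 Galnt genes, which start O-glycans, 8 were tested, with 0 higher and 1 lower in cecal tumors. This is 12.5%, near the 10.9% of all genes, and the median size of the difference was 0.26 against 0.21 for all genes. Galnt11, known in human and frog for modifying Notch1, had 112, 136 and 170.3 in cecal tumors, against 256, 261 and 259 in duodenal tumors (-0.84 ± 0.18 SE, limma adjusted p = 0.0219). That call was lost without any single tumor but cecal tumor 3 (0.0514 to 0.0782). Galnt2 had 495, 709 and 684 in cecal tumors, against 1087, 845 and 1072 in duodenal tumors. It just missed the threshold (-0.66 ± 0.18 SE, limma adjusted p = 0.0504), and its 3 tested probe sets were all lower in each cecal tumor than in any duodenal tumor. It passed without duodenal tumor 2 (0.0367), as did Galnt7 (-0.51, limma adjusted p = 0.132, or 0.0138 without that tumor). Galnt3 had means of 1532 ± 188 in cecal and 1484 ± 200 in duodenal tumors (SD, n = 3 each), a log2 difference with a 95% interval of -0.28 to 0.38. Galnt1 had 1089 ± 151 and 1104 ± 88, with an interval of -0.35 to 0.30. These intervals leave out a change of 2-fold or more for both genes. Galnt4, Galnt6 and Galnt10 did not pass either, and Galnt16 was too dim.

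The branching enzymes and fucosyltransferases that could be tested did not differ detectably. Gcnt3, which branches mucin chains, had means of 994 ± 115 in cecal and 1176 ± 362 in duodenal tumors (95% interval of the log2 difference -0.72 to 0.32, limma adjusted p = 0.639). Gcnt2, which makes the I blood group branch, had an interval of -0.07 to 0.57, and Gcnt1 was too dim. C1galt1, which makes core 1, and its chaperone C1galt1c1 did not pass (0.17 and 0.40, limma adjusted p = 0.549 and 0.139). Fut8, which adds core fucose to asparagine-linked chains, had 1676 ± 319 in cecal and 1581 ± 338 in duodenal tumors (SD, n = 3 each; limma adjusted p = 0.827). Fut2, which fucosylates the gut surface, lay near the 40th percentile, at 103.8, 94.3 and 111.8 in cecal tumors and 79.5, 79.9 and 134.1 in duodenal tumors. Fut1, Fut4, Fut7, Fut9 and Fut10 never rose above an intensity of 68.7, so 5 of 7 Fut genes gave no comparison. None of 4 tested fucose supply genes passed.

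Sulfotransferases were mostly too dim, with 3 of 11 Chst genes tested and 1 higher in cecal tumors, 33.3% against 10.9% of all genes. Chst1, which sulfates galactose in keratan sulfate, had 197, 235 and 239 in cecal tumors, against 129, 117 and 155 in duodenal tumors (0.68 ± 0.17 SE, limma adjusted p = 0.0429). The call was lost with the replicate number as a block (0.0505) and without any single tumor but duodenal tumor 3 (0.0669 to 0.145). Chst4, which sulfates N-acetylglucosamine on mucin-type chains, had 318, 230 and 324 in cecal tumors, against 235, 80.8 and 205 in duodenal tumors, and did not pass (limma adjusted p = 0.208), nor did Chst15 (0.187). Chst2, Chst3, Chst5, Chst7, Chst10, Chst11, Chst12 and Chst14 were too dim. On the list of sulfate donor supply and removal, 2 of 8 tested genes were called, 25% against 10.9% of all genes. Both were higher in cecal tumors: the anion exchanger Slc26a3 (3.34 ± 0.71 SE, limma adjusted p = 0.0221, lost without cecal tumor 1, 0.0938, or cecal tumor 2, 0.0675) and the lysosomal sulfatase Galns (0.62 ± 0.14 SE, limma adjusted p = 0.0313, or 0.0515 to 0.125 without any single tumor). The sulfate carrier Slc26a2 did not pass (0.83 ± 0.23 SE, limma adjusted p = 0.064), and it did without cecal tumor 3 (0.0409) or duodenal tumor 3 (0.0207).

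The N-glycan branching family held the largest difference of all members. Mgat4c, a homolog of the Mgat4 branching enzymes, had 3123, 2703 and 1794 in cecal tumors, against 250.4, 171 and 120.1 in duodenal tumors. Every cecal tumor exceeded every duodenal tumor by a wide margin (log2 difference 3.72 ± 0.28 SE, 13.2-fold, limma adjusted p = 0.00027). Mgat4b, which adds an N-acetylglucosamine branch, had 2766, 2949 and 2286 in cecal tumors, against 1787, 1261 and 1589 in duodenal tumors (0.79 ± 0.16 SE, limma adjusted p = 0.0185). Its call was lost without cecal tumor 1 (0.0744) or cecal tumor 2 (0.0800). Mgat1 and Mgat2, which open the way to complex chains, and Mgat3, which adds the bisecting sugar, did not pass, with differences of -0.26 to 0.19. Mgat5 and Mgat4d were too dim.

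Some of the mucins that carry these chains differed by site. No probe set named Muc2, Muc6 or Muc16 as its single gene, and Muc5b and Muc20 were too dim to be tested. Of 5 tested mucin genes, 2 were higher and 2 lower in cecal tumors, 80% against 10.9% of all genes. The other, Muc4, overlapped between the sites and did not pass (-0.45, limma adjusted p = 0.366). The membrane mucin Muc3 had 9365, 7345 and 5573 in cecal tumors, against 489.7, 180.3 and 553 in duodenal tumors (4.25 ± 0.39 SE, limma adjusted p = 0.000554), and Muc13 was higher by 0.79 ± 0.21 (limma adjusted p = 0.0476). The call of Muc13 was lost without any single one of the cecal tumors or duodenal tumor 1 (0.0657 to 0.159). Muc1 was at least 20.3-fold and the stomach mucin Muc5ac at least 17.5-fold lower in cecal tumors (limma adjusted p = 6.18e-06 and 0.00134), where both were below the 40th percentile. Both passed the filter only through the duodenal tumors, so their direction largely follows from it. Of all tested genes with all tumors of 1 site below that level, 81.8% were called. Muc5ac is also on the stomach marker list, so the counts of mucins and stomach markers are not separate results. Of 12 tested nucleotide sugar supply genes none passed. Of 5 tested core 1 and blood group enzymes 1 was called, 20% against 10.9% of all genes. This was Gal3st1, a galactose sulfotransferase of glycolipids, lower in cecal tumors at 397, 405 and 303, against 879, 514 and 1016 in duodenal tumors (-1.05 ± 0.25 SE, limma adjusted p = 0.0357). Its call was lost without any single tumor but duodenal tumor 2 (0.0845 to 0.110). Over all 6 lists, 10 of 42 tested genes were called, 23.8% against 10.9% of all genes, with 7 higher and 3 lower in cecal tumors. The lower ones include Muc1 and Muc5ac, which passed the filter only through the duodenal tumors. Without cecal tumor 1 or cecal tumor 2, 6 list genes were called.

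Genes with several tested probe sets gave a check on the values. Of the 43 members 13 had more than 1 tested probe set, 18 further ones in all. Only 3 of these 13 genes were called, B4galnt2, B4galt6 and St3gal6. Each of the other called genes, Mgat4c, B3galt5 and St6galnac6 among them, rested on 1 tested probe set. None of the 18 had the opposite sign of the probe set that stood for the gene, and none differed from it in its call. For the uncalled genes the latter means only that no probe set passed. Probe sets too dim to be tested are left out of this check, among them those of B3galt6 and St6galnac2 that overlapped between the sites. By probe set, 20 of 61 tested members were called, 10 higher and 10 lower in cecal tumors, or 32.8% against 9.3% of all 13866. That count was 8 without cecal tumor 1 and 13 without cecal tumor 2, duodenal tumor 1 or duodenal tumor 3. Among the representatives, that of St3gal6 is of a design that can match transcripts of more than 1 gene. That of B4galt7, which did not pass, is of one whose probes can bind other genes.

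**Figure D4:**
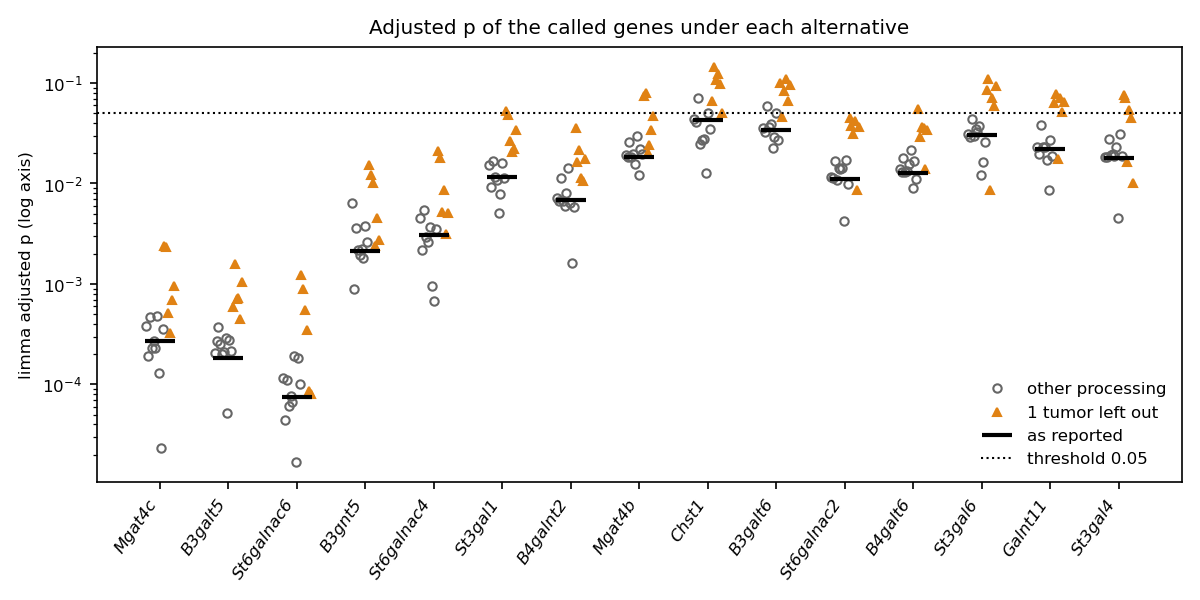
Limma adjusted p (log axis) of the 15 called genes as reported (black bars), with other processing (open circles) and with 1 tumor left out (orange triangles); the dotted line is the threshold of 0.05. St6galnac6, Mgat4c and B3galt5 stay at or below 0.00238 throughout, whereas Chst1, B3galt6, St3gal6 and Galnt11 cross the threshold when any of several tumors is left out.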

How the data were processed

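RNA of 6 tumors was hybridised to 1 Affymetrix array each. The authors deposited probe set intensities on a linear scale from MAS5, a tool named in the submitters' processing notes; the sources used here give neither its version and scaling target nor detection calls. After trimming 2% at each end, every array's deposited intensities averaged 500.2, so no further scaling was added. The titles gave each tumor's site and replicate number. Of 22690 probe sets, 64 were controls and left out, 20380 named 1 gene, 691 several and 1555 none; all 120 member probe sets were found by gene ID in a RefSeq table (GRCm38.p6), with no symbol changed. The number of arrays limits the precision.

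Probe sets were filtered as described above, and the fold of a gene below the 40th percentile in all tumors of 1 site is given as at least the bright site's mean log2 intensity over the other site's percentile level. Tests used limma 3.58.1 in R 4.3.3 (lmFit, eBayes with an intensity trend), two-sided, fitted on all genes, or on all probe sets where stated, with Benjamini-Hochberg adjustment. The procedure was tested on simulated data. Figures used Python 3.11.15 and matplotlib 3.10.9.

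The members, gene lists and tests were chosen with earlier results of these data known. Values of each tumor are given for called genes and for the others singled out; other members are given by range or name. Named list genes are those with the smallest p, and Nanp, Npl, Neu1, Siae, B4galt7 and the markers called were named after their values were seen. Tumors with the same replicate number deviated together from their group means (correlations of 0.274, 0.299 and 0.203, against -0.2 to -0.026 for different numbers). Deviations from a group mean cancel out within the group, so the values for different numbers are not independent of those for the same number. The number may pair tumors, but the labels name no shared litter or batch. The reported fit therefore leaves the number out, and the fit with it as a block is an alternative. Other alternatives were the offset, the filter, the normalization, the variance model, array weights, the mean of probe sets, stricter thresholds and leaving out each tumor.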

Additional observations from a re-analysis of the deposited data

How the results depend on the processing

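Of the 15 called members, 7 were called at 0.05 in every alternative fit that tested them. The other 8 lost the call in at least 1, all 15 keeping their direction. Without a single tumor, 7 to 13 members, 8 to 16 member probe sets, 6 to 9 genes of the other lists, 481 to 834 of all genes and 658 to 1194 of all probe sets were called. The lowest number in each of these ranges came without cecal tumor 1 (for the lists also without cecal tumor 2). Without cecal tumor 2, 495 genes and 700 probe sets were called, and without duodenal tumor 1, 583 and 816. Each such fit has 1 array less; the cause of the unequal losses was not tested. An adjusted p under 0.01 left 6 members, 8 member probe sets, 5 list genes, 350 genes and 506 probe sets. A difference of at least 2-fold left 7 members, 9 member probe sets, 6 list genes, 487 genes and 688 probe sets. Array weights raised the count of all probe sets to 1939 (17 members called). With the replicate number as a block 13 members, 20 member probe sets, 12 list genes, 1033 genes and 1571 probe sets were called. The block ended the calls of B3galt6 (limma adjusted p = 0.0507) and Chst1 (0.0505) and changed no other member's call. With no filter on dim probe sets 14 members were called: B3galt6 (0.0595) and Chst1 (0.0703) were lost and B3galt2 (1.43, adjusted p = 0.00807) was gained. The stricter filter at the 60th percentile left 27 tested members, of which 10 were called. Galnt2 was gained with array weights (0.0214), an offset of 64 (0.0494) and the stricter filter (0.048), Galnt7 with array weights (0.0288), Cmas with array weights (0.0352), and Slc26a2 with array weights (0.0157) and the mean of its probe sets (0.0383).

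Signs turned only for 8 genes that did not pass, with adjusted p of 0.574 or more. With array weights, B4galt4 had a log2 difference of -0.0088, Fut8 -0.17 and Galnt3 -0.10. Median centring gave 0.0295 for Galnt1, and the mean of its probe sets -0.0036 for C1galt1. Without a single tumor the log2 differences ran from -0.13 to 0.22 for B4galt4, -0.0108 to 0.32 for Fut2, -0.078 to 0.24 for Fut8, -0.10 to 0.0897 for Galnt1, -0.0508 to 0.15 for Galnt3, -0.45 to 0.0085 for Gcnt3 and -0.15 to 0.19 for St3gal3. A dim probe set limits what can be said of the 32 untested members, whose intensities stayed at or below 119.7.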
